A study of Oryctolagus cuniculus with 20 samples.

Results

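The genes described here are the 31 members of the TGF-β, BMP, WNT and growth factor signalling families that could be found in RNA-seq counts of rabbit tricuspid valves. They were chosen from the supplementary list of differentially expressed genes of the study, by symbol alone, with 1 of 19 prefixes for ligands, receptors, latency proteins, SMADs, NOTCH and EPH genes, and with an Ensembl identifier present among the 23669 genes of the count table. Of 43 entries of that list with such a prefix, PDGFRB was left out by the rule and 11 had an identifier that is not in the count table. Because the list was made by the study from these same valves, all comparisons with non-treated valves were used in the choice. Their fold changes and calls are therefore given as a description, without p-values, and they support nothing on their own. The valves came from female New Zealand white rabbits aged 8 weeks at the start and treated orally for 16 weeks, with 5 valves of separate rabbits in each of 4 groups. Non-treated rabbits received water. Of the treated groups, one received serotonin at 80 mg/kg per day. Another received pergolide, an ergot-derived dopamine agonist, at a daily 0.5 mg/kg. The last received dexfenfluramine, an appetite suppressant that releases serotonin, at 20 mg/kg per day by the labels, although the text of the study also gives another dose for it. The design asks whether the drugs and serotonin itself alter the same genes of the valve. As whole valve tissue was sequenced, fewer cells of a type and less RNA per cell cannot be told apart.

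Ligands of the TGF-β family are secreted in a latent form held by latency proteins, bind paired type I and type II receptors, and signal through SMAD proteins, with SMAD4 as the partner shared by the TGF-β and BMP branches. WNT ligands bind Frizzled receptors, NOTCH receptors bind ligands such as JAG1 on neighbouring cells, and FGF, VEGF and IGF signals pass through tyrosine kinase receptors. In heart valves these pathways are known for endocardial cushion formation, for the conversion of endothelial cells into mesenchyme and for matrix production by valvular interstitial cells. Among the 31 members, 4 share a prefix but not a signalling role of these pathways. EPHX1 is an epoxide hydrolase, FGFR1OP2 is named as a partner of an FGF receptor gene, IGF2BP2 is an RNA-binding protein and LRP2, also called megalin, is an endocytic receptor.

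Total counts ran from 3247091 to 5921025 per valve. Levels are given as CPM, the counts of a gene scaled to a common library size, after the TMM correction of edgeR for differences in RNA composition. TMM factors of non-treated valves lay between 0.584 and 1.25 (median 0.790), those of serotonin valves between 0.659 and 1.11, those of pergolide valves between 0.990 and 1.26, and those of dexfenfluramine valves between 1.08 and 1.72. A CPM can be compared between valves for one gene but not between genes, as transcript lengths were not used. Cell type markers were matched through the same list of the study, so that those measured are themselves genes it called. Markers of valvular interstitial cells summed to 6122 to 9498 CPM in non-treated valves, and none of the 8 measured, among them COL1A1 and COL3A1, was at 0 in any valve. The valves also held heart muscle RNA. The 9 measured cardiomyocyte markers summed to 49452 to 151625 CPM in non-treated valves, 53489 to 104443 after serotonin, 48057 to 92654 after pergolide and 12482 to 71277 after dexfenfluramine. Non-treated replicate 3 and dexfenfluramine replicate 3 were the lowest of their groups, and counts of calls without both are given further on.

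**Figure D1:**
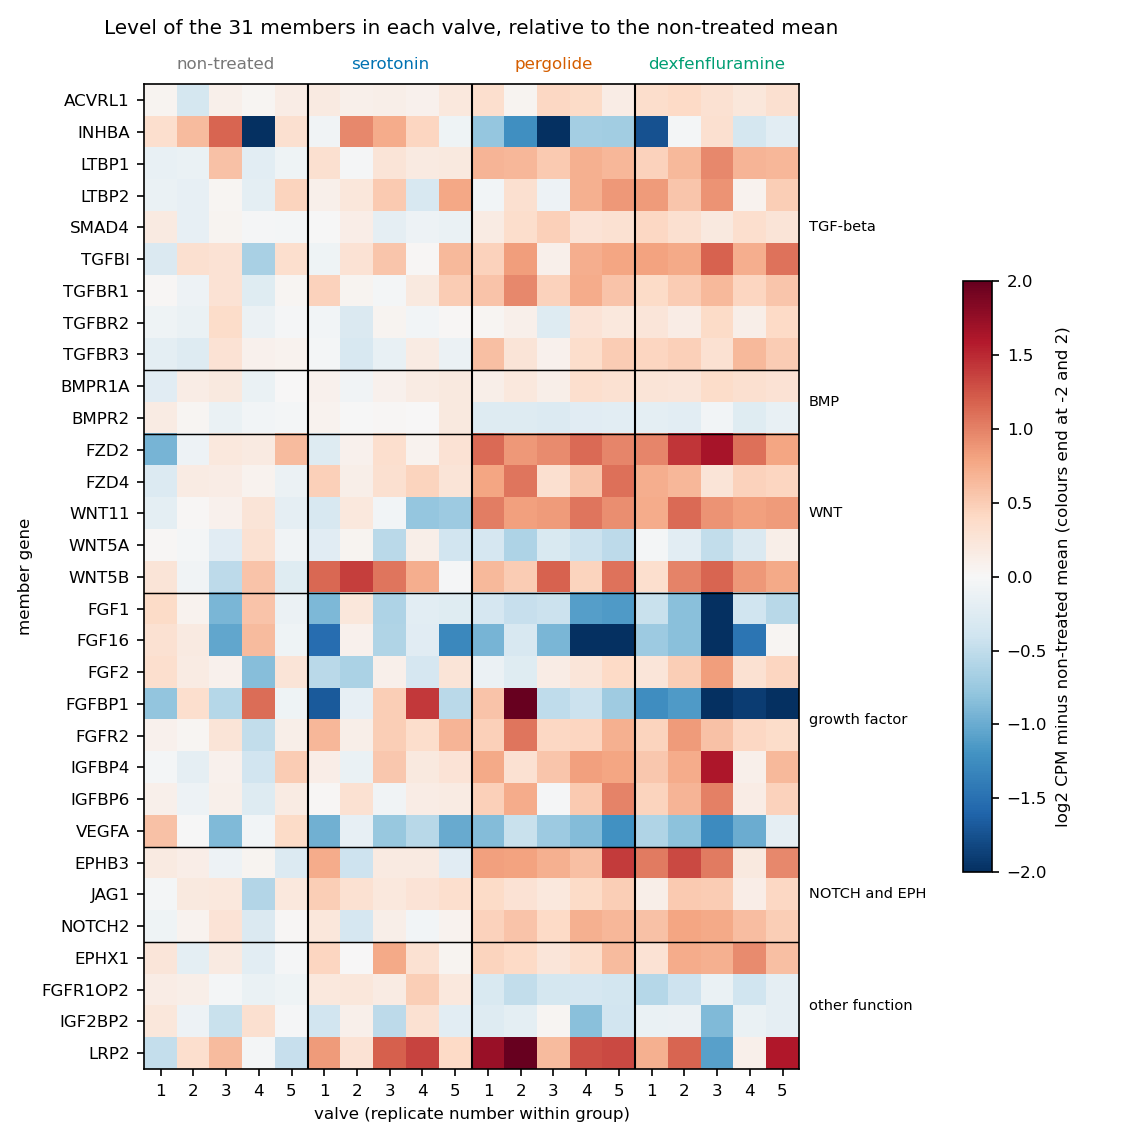
Log2 CPM of each of the 31 members (rows, grouped by pathway) in each of the 20 valves (columns, grouped by treatment), minus the mean of the 5 non-treated valves. Red cells prevail in the pergolide and dexfenfluramine columns of the TGF-β, WNT and NOTCH rows, while FGF1 and VEGFA are blue there throughout and FGF16 in every valve but dexfenfluramine replicate 5, and dexfenfluramine replicate 3 has the lowest FGF1 of all valves at 15.1 CPM.

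All 31 members passed the filter on low counts and were among the 8683 genes tested. For pergolide 23 of them were called, 17 higher and 6 lower, and for dexfenfluramine 21, 18 higher and 3 lower (edgeR's quasi-likelihood test with Benjamini-Hochberg adjustment over all genes tested, adjusted p under 0.05). Among all genes tested, 24.8% were called for pergolide (12.1% higher and 12.7% lower) and 28.9% for dexfenfluramine (13.5% higher and 15.4% lower). As the members come from a list of called genes, nothing is read from the excess. For serotonin 0 of the 31 were called by edgeR, DESeq2 or limma-voom, against 1.19% of all genes called by edgeR. At an unadjusted p under 0.05 there were 7 members. The share of all genes at that unadjusted threshold is not given, so that nothing is read from the 7. Without non-treated replicate 3, 1 member, VEGFA, was called lower after serotonin, and without both that valve and dexfenfluramine replicate 3 LTBP1 was called higher as well, which makes 2. With surrogate variables from svaseq in the fit, 8 members were called for pergolide (FGFR2, IGFBP6, LRP2, LTBP1, NOTCH2, SMAD4, TGFBI and TGFBR1) and 5 for dexfenfluramine (EPHX1, LTBP1, NOTCH2, SMAD4 and TGFBI), all of them higher, against 12.8% and 10.9% of all genes tested. The median log2 fold change of the members was 0.11 after serotonin, 0.38 after pergolide and 0.47 after dexfenfluramine, and that of all genes tested was 0.015, 0.023 and 0.032.

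The drugs shared 18 called members, and each of the 18 had the same direction for both. Rises with both drugs were found for 16 of them, namely ACVRL1, EPHB3, EPHX1, FGFR2, FZD2, FZD4, IGFBP4, IGFBP6, LTBP1, NOTCH2, SMAD4, TGFBI, TGFBR1, TGFBR3, WNT11 and WNT5B. VEGFA and FGFR1OP2 fell with both. These comparisons share the non-treated valves, so that a common direction is not independent evidence. A further 5 members were called for pergolide only (LRP2 higher, BMPR2, FGF16, INHBA and WNT5A lower) and 3 for dexfenfluramine only (BMPR1A and LTBP2 higher, FGFBP1 lower). Called for neither drug were FGF1, FGF2, IGF2BP2, JAG1 and TGFBR2. By role, 8 of 11 receptors were called higher and 1 lower for pergolide, and 9 of 11 higher for dexfenfluramine. Of the 9 ligands, 2 were called higher with each drug, while 4 were called lower for pergolide and 1 for dexfenfluramine. The shares of all genes tested were 12.1% higher and 12.7% lower for pergolide, and 13.5% higher and 15.4% lower for dexfenfluramine. As the members come from a list of called genes, nothing is read from the counts by role.

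Valves of a group did not overlap the non-treated valves for 11 members after pergolide (8 above, 3 below), for 15 after dexfenfluramine (13 above, 2 below) and for 1 after serotonin. Over all genes tested, 16.3%, 17.0% and 2.66% did not overlap, in that order.

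**Figure D2:**
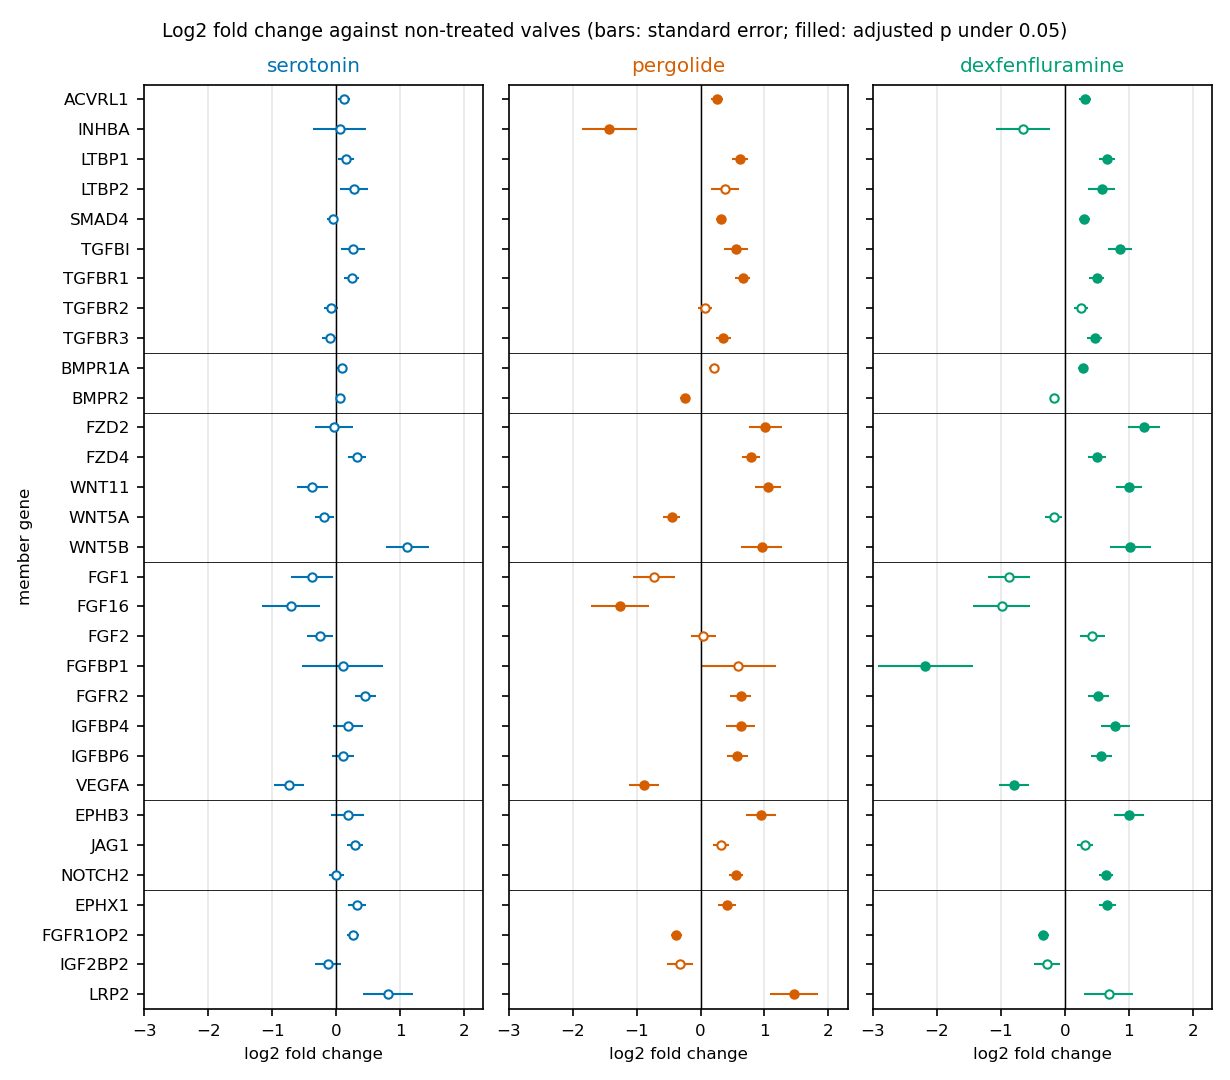
Log2 fold change of each member (rows, in pathway order from TGF-β at the top to the prefix matches at the bottom) against non-treated valves, with its standard error as a bar, for serotonin, pergolide and dexfenfluramine. Filled points are called at an adjusted p under 0.05, and all 31 serotonin points are open, while FGFBP1 after dexfenfluramine lies furthest to the left at -2.18.

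Of the 9 TGF-β members, 6 rose and 1 fell with pergolide, and 7 rose with dexfenfluramine. The receptors TGFBR1 and TGFBR3, the latency protein LTBP1, the matrix protein TGFBI and SMAD4 were higher with both drugs, by 0.31 to 0.87 on the log2 scale. Where group means follow without a name, their order is non-treated, serotonin, pergolide and dexfenfluramine. Where a call depended on a single valve, the valves are named and the range of the log2 fold change over every valve left out in turn follows in parentheses. TGFBR1 (ENSOCUG00000016292), the type I receptor that carries the TGF-β signal into the cell, stood at 51.9, 47.7, 62.7, 43.2 and 52.5 CPM in the non-treated valves and at 70.6, 53.5, 50.0, 58.7 and 72.7 CPM after serotonin. It stood at 76.0, 99.9, 70.8, 85.8 and 76.5 CPM after pergolide and at 67.1, 72.7, 80.5, 69.1 and 75.7 CPM after dexfenfluramine. Every drug-treated valve lay above every non-treated valve, whereas serotonin valves overlapped both. On the log2 scale TGFBR1 rose by 0.66 ± 0.12 (SE, n = 5 valves per group) with pergolide and by 0.50 ± 0.12 with dexfenfluramine, and the serotonin value was 0.24 ± 0.12. The dexfenfluramine call was lost with svaseq variables and with the cardiomyocyte covariate described further on.

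TGFBR3 (ENSOCUG00000016083), or betaglycan, presents TGF-β ligands to the signalling receptors. Its levels were 154, 149, 218, 189 and 186 CPM in non-treated valves and 174, 142, 159.6, 199.5 and 164 CPM with serotonin. With pergolide they were 269.7, 212, 189, 228 and 252 CPM, and with dexfenfluramine 240.3, 246, 220.3, 279.6 and 254 CPM. Only the dexfenfluramine group cleared all non-treated valves, since non-treated replicate 3 reached into the pergolide range. The rise was 0.36 ± 0.12 with pergolide and 0.47 ± 0.12 with dexfenfluramine, against -0.098 ± 0.12 with serotonin. The pergolide call was lost without non-treated replicates 1 or 2 or pergolide replicates 1 or 5 (0.28 to 0.44). It was also lost with svaseq variables and in a fit of only the groups compared. The dexfenfluramine call held as each valve was left out but was lost with svaseq variables as well.

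TGFBI (ENSOCUG00000004928) encodes a matrix protein induced by TGF-β. It was measured at 98.8, 149.8, 147, 76.2 and 152 CPM in non-treated and 113, 147, 177, 123 and 188 CPM in serotonin-treated valves. Pergolide valves had 166, 214, 129, 199.97 and 208 CPM and dexfenfluramine valves 211, 203, 273, 199 and 256 CPM. All dexfenfluramine valves exceeded all non-treated valves, whereas pergolide replicate 3 fell within the non-treated range. TGFBI rose by 0.87 ± 0.19 with dexfenfluramine and by 0.55 ± 0.19 with pergolide. The pergolide call was lost without non-treated replicates 1 or 4 or pergolide replicates 2, 4 or 5 (0.41 to 0.66). It was also lost in a fit of only the groups compared and with the cardiomyocyte covariate.

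LTBP1, which stores latent TGF-β in the matrix, had group means of 228 ± 59.8, 253 ± 22.4, 349.7 ± 17.9 and 359 ± 45.4 CPM (SD, n = 5). Of the non-treated valves, 4 lay between 192 and 209 CPM, while non-treated replicate 3, at 334 CPM, lay within the range of both drugs. LTBP1 rose by 0.62 ± 0.13 with pergolide and 0.66 ± 0.13 with dexfenfluramine, and both calls held as each valve was left out and in all 11 other settings with the same threshold. SMAD4, the shared SMAD partner, had means of 63.5 ± 5.51, 61.1 ± 5.45, 79.1 ± 6.13 and 78.5 ± 4.43 CPM, with rises of 0.32 ± 0.080 and 0.31 ± 0.080 for the drugs, and its serotonin value was -0.055 ± 0.081. These calls held in the same settings. ACVRL1, a type I receptor of endothelial cells, had 28.3 ± 3.68, 30.9 ± 1.23, 34.0 ± 3.70 and 35.2 ± 1.65 CPM and rose by 0.26 ± 0.094 with pergolide and 0.31 ± 0.094 with dexfenfluramine. Its pergolide call was lost without non-treated replicates 1, 2 or 4 or pergolide replicates 1, 3 or 4 (0.17 to 0.30) and in 10 of the 11 other settings. Its dexfenfluramine call was lost without non-treated replicate 2 (0.23 to 0.34), which at 21.9 CPM lay apart from the other non-treated valves. That call was also lost with svaseq variables, in a fit of only the groups compared and with the cardiomyocyte covariate.

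LTBP2, a microfibril protein related to LTBP1, had 47.6 ± 9.72, 58.1 ± 16.4, 62.1 ± 18.97 and 71.2 ± 15.6 CPM. It rose with dexfenfluramine by 0.57 ± 0.21, a call lost without non-treated replicates 1, 2, 3 or 4 or dexfenfluramine replicates 1, 2, 3 or 5 (0.49 to 0.70). That call was also lost by limma-voom, with svaseq variables, with DESeq2 size factors, with no filter and without both non-treated replicate 3 and dexfenfluramine replicate 3. The pergolide value of LTBP2 was 0.38 ± 0.21, and 0.24 without pergolide replicate 5. TGFBR2, the type II receptor, had 194 ± 30.1, 184 ± 16.2, 204 ± 28.0 and 230.3 ± 20.6 CPM and was called for neither drug, at 0.069 ± 0.11 and 0.25 ± 0.11. Non-treated replicate 3 was its highest non-treated valve, at 247 CPM, and without that valve TGFBR2 was called higher for dexfenfluramine (0.20 to 0.35). INHBA, which encodes the subunit of activin A, was the one TGF-β member that fell. Its mean was 42.4 ± 24.4 CPM in non-treated valves, 44.9 ± 14.6 with serotonin, 15.9 ± 5.77 with pergolide and 27.1 ± 11.5 with dexfenfluramine. The pergolide value was -1.42 ± 0.43 and the uncalled dexfenfluramine value -0.66 ± 0.42. Non-treated replicate 4, at 5.59 CPM, was below every pergolide valve. The pergolide call was lost without non-treated replicate 3 (-1.71 to -1.12), by limma-voom, with svaseq variables and with a replicate block, and without non-treated replicate 4 INHBA was called lower for dexfenfluramine as well (-0.94 to -0.35).

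The BMP members were a pair of receptors, whose values with each drug had opposite signs. BMPR2 (ENSOCUG00000001971), the type II receptor of BMP ligands, had 312, 286, 254, 268 and 272 CPM in non-treated and 291, 278, 283, 279.7 and 318 CPM in serotonin-treated valves. The values were 232, 233, 230.1, 238 and 241 CPM after pergolide and 241, 240.4, 268, 236 and 252 CPM after dexfenfluramine. The pergolide valves kept within a narrow range below all non-treated and serotonin valves, and the dexfenfluramine valves overlapped the non-treated ones. BMPR2 fell with pergolide (-0.25 ± 0.068), a call that held as each valve was left out but was lost with svaseq variables. Its dexfenfluramine value of -0.17 ± 0.068 was called only without non-treated replicate 3 or dexfenfluramine replicate 3 (-0.20 to -0.13) or by DESeq2, its size factors or limma-voom. BMPR1A (ENSOCUG00000016925), a type I BMP receptor, had 81.2, 106, 109.7, 87.1 and 96.0 CPM in non-treated and 102, 91.2, 101, 107 and 109 CPM in serotonin-treated valves. After pergolide it had 104, 110.2, 103, 120.1 and 118 CPM and after dexfenfluramine 115, 113, 124, 119 and 116 CPM. Every dexfenfluramine valve exceeded every non-treated valve, by a small margin, and BMPR1A rose by 0.29 ± 0.082 there, against 0.21 ± 0.082 for pergolide. The dexfenfluramine call was lost with svaseq variables and without non-treated replicates 1 or 4 (0.22 to 0.34). Pergolide was called without non-treated replicate 3 (0.14 to 0.26).

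The WNT receptor FZD2 and the ligand WNT11 rose above all non-treated valves with both drugs. All 5 WNT members were called for pergolide, 4 higher and WNT5A lower, and 4 were called higher for dexfenfluramine. FZD2 (ENSOCUG00000014730), a Frizzled receptor, was at 0.721, 1.63, 2.11, 2.06 and 2.99 CPM in non-treated and 1.40, 1.90, 2.34, 1.88 and 2.25 CPM in serotonin-treated valves. It was at 4.41, 3.59, 3.79, 4.40 and 3.91 CPM after pergolide and 3.87, 5.51, 6.48, 4.29 and 3.37 CPM after dexfenfluramine. Each drug-treated valve was above each non-treated and each serotonin valve. FZD2 rose by 1.01 ± 0.26 with pergolide and 1.24 ± 0.25 with dexfenfluramine, and the serotonin value was -0.029 ± 0.30. It is a gene of few reads, with 2 to 36 counts per valve, and it was not tested where 10 counts were required in every valve. Both drug calls of FZD2 were lost with svaseq variables.

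WNT11 (ENSOCUG00000001726), a ligand known for signalling without β-catenin, had 1.80, 2.168, 2.28, 2.65 and 1.84 CPM in non-treated and 1.63, 2.53, 2.05, 1.07 and 1.12 CPM in serotonin-treated valves. Levels were 4.79, 4.10, 4.21, 4.92 and 4.45 CPM after pergolide and 3.87, 5.17, 4.32, 4.10 and 4.17 CPM after dexfenfluramine. The drug groups again lay wholly above the other groups. The rises of 1.05 ± 0.20 and 1.00 ± 0.20 rest on 4 to 30 counts per valve, and the serotonin value was -0.37 ± 0.24. Both drug calls of WNT11 were lost with svaseq variables, and it was not tested where 10 counts were required in every valve. FZD4 (ENSOCUG00000006445), a Frizzled receptor of vascular development, had 20.6, 27.9, 27.6, 26.2 and 23.0 CPM in non-treated and 34.9, 26.9, 31.3, 34.1 and 29.8 CPM in serotonin-treated valves. The pergolide valves had 43.5, 52.5, 31.2, 36.9 and 53.9 CPM and the dexfenfluramine valves 41.5, 39.5, 29.7, 34.5 and 33.8 CPM. Drug-treated valves cleared the non-treated range, with the highest levels after pergolide, and 4 of 5 serotonin valves did too. FZD4 rose by 0.79 ± 0.14 with pergolide and 0.51 ± 0.14 with dexfenfluramine, and both calls were lost with svaseq variables.

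WNT5B and WNT5A, related ligands known for signalling without β-catenin, went in opposite directions with pergolide. WNT5B, with means of 1.51 ± 0.581, 3.15 ± 1.16, 2.83 ± 0.784 and 2.94 ± 0.684 CPM, had 0.878 to 2.35 CPM in non-treated valves, 1.40 to 4.43 after serotonin, 2.11 to 3.79 after pergolide and 1.94 to 3.78 after dexfenfluramine, from 5 to 21 counts per valve. It rose by 0.96 ± 0.32 with pergolide and 1.02 ± 0.32 with dexfenfluramine, and the uncalled serotonin value was as high, at 1.11 ± 0.33. Its pergolide call was lost without non-treated replicates 2, 3 or 5 or pergolide replicates 3 or 5 (0.78 to 1.16) and its dexfenfluramine call without non-treated replicates 3 or 5 or dexfenfluramine replicate 3 (0.84 to 1.23). Both were lost with svaseq variables and without both non-treated replicate 3 and dexfenfluramine replicate 3, the pergolide call also with no filter and with a replicate block, and the dexfenfluramine call in a fit of only the groups compared. WNT5A, with means of 25.5 ± 3.66, 22.4 ± 4.35, 18.6 ± 1.68 and 22.5 ± 3.71 CPM, had 21.6 to 31.5 CPM in non-treated valves and 16.4 to 20.4 CPM after pergolide, ranges that did not overlap. It fell with pergolide (-0.45 ± 0.14), a call lost with svaseq variables and without non-treated replicate 4 (-0.51 to -0.38). The dexfenfluramine value of WNT5A was -0.18 ± 0.14, and -0.099 without that valve.

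**Figure D3:**
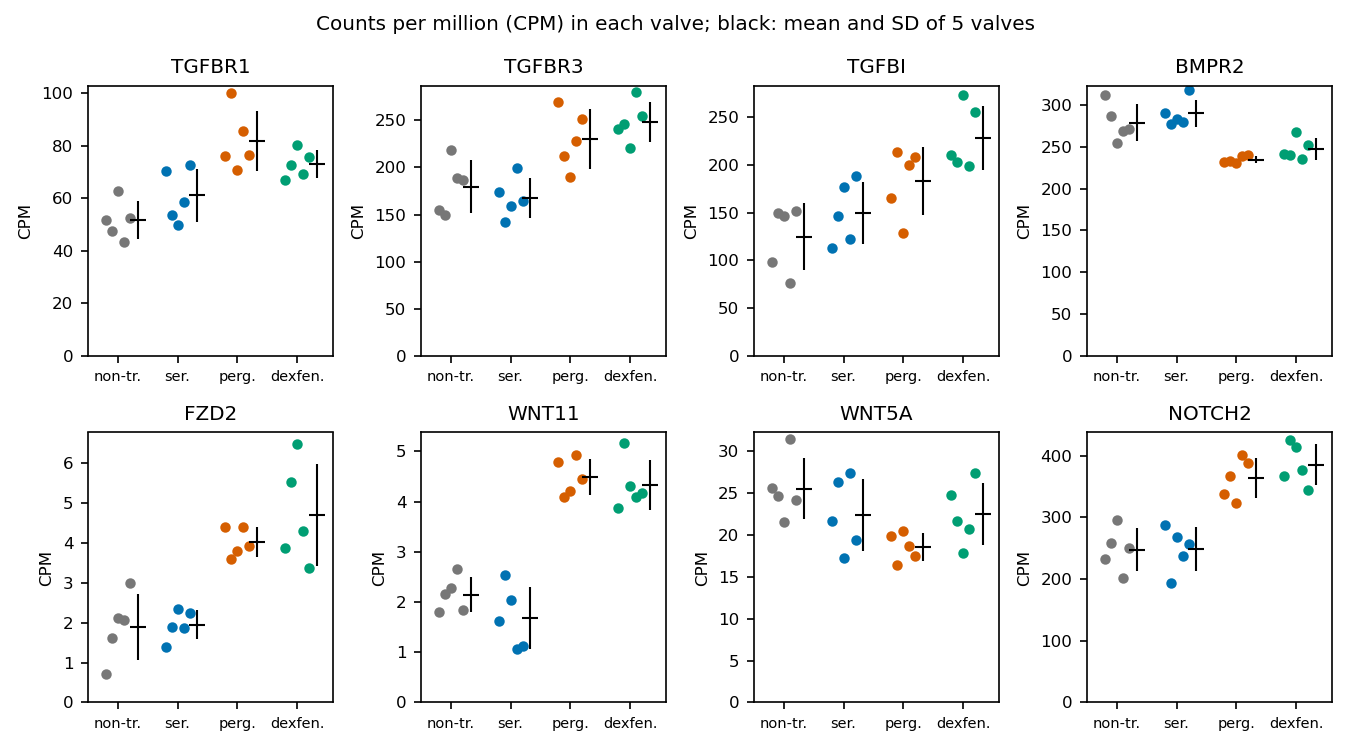
CPM of 8 members in each valve, by group (coloured points), with the mean and SD of the 5 valves of each group in black; every axis starts at 0. FZD2, WNT11 and NOTCH2 separate both drug groups from the non-treated and serotonin groups, TGFBR1 separates them from the non-treated group only, and BMPR2 and WNT5A are lowest after pergolide, where BMPR2 runs from 230.1 to 241 CPM.

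Of the 8 growth factor members, 3 rose and 2 fell with each drug. The receptor FGFR2 and the IGF-binding proteins IGFBP4 and IGFBP6, which bind insulin-like growth factors, rose with both drugs, while the ligand VEGFA fell with both. FGFR2 (ENSOCUG00000007069) had 19.1, 18.4, 21.6, 12.6 and 19.6 CPM in non-treated and 28.9, 19.6, 25.4, 23.1 and 28.9 CPM in serotonin-treated valves. It had 25.1, 38.4, 24.02, 24.3 and 29.9 CPM after pergolide and 24.7, 32.9, 27.2, 24.04 and 23.4 CPM after dexfenfluramine. Each drug-treated valve exceeded each non-treated valve, and 4 of 5 serotonin valves did as well. FGFR2 rose by 0.63 ± 0.16 with pergolide and 0.53 ± 0.16 with dexfenfluramine, and the uncalled serotonin value was 0.46 ± 0.16. The dexfenfluramine call was lost with svaseq variables and without non-treated replicate 4 or dexfenfluramine replicate 2 (0.41 to 0.60).

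FGFBP1 (ENSOCUG00000016623), a carrier that releases FGFs from the matrix, had 2.53, 5.96, 2.98, 10.6 and 4.37 CPM in non-treated and 1.16, 4.11, 6.72, 13.1 and 3.09 CPM in serotonin-treated valves. Pergolide valves had 7.09, 22.7, 3.16, 3.34 and 2.67 CPM and dexfenfluramine valves 1.72, 1.90, 0.360, 0.932 and 0.801 CPM. The dexfenfluramine valves were all below the non-treated ones, and pergolide replicate 2 was far above its group. FGFBP1 fell with dexfenfluramine by the largest amount among the members (-2.18 ± 0.74), from 2 to 133 counts per valve, and the call was lost without non-treated replicates 2 or 4 or dexfenfluramine replicates 3, 4 or 5 (-2.46 to -1.80), by limma-voom, with svaseq variables, without both non-treated replicate 3 and dexfenfluramine replicate 3 and with the cardiomyocyte covariate. With pergolide the value was 0.59 ± 0.59, and it turned negative without pergolide replicate 2 (-0.37 to 0.97).

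VEGFA, the main angiogenic factor, had means of 66.9 ± 23.2, 39.9 ± 10.3, 36.1 ± 7.04 and 38.1 ± 11.2 CPM, with 34.1 to 94.9 CPM in non-treated valves, 31.2 to 56.3 after serotonin, 27.0 to 46.5 after pergolide and 26.3 to 55.6 after dexfenfluramine. Non-treated replicate 3 was the lowest non-treated valve and lay within the range of the treated valves. VEGFA fell with pergolide (-0.88 ± 0.24) and dexfenfluramine (-0.80 ± 0.23), and both calls were lost with svaseq variables. Serotonin gave -0.74 ± 0.24, called only in fits without non-treated replicate 3 (-0.91 to -0.59). IGFBP4, with means of 25.7 ± 6.36, 29.4 ± 5.08, 39.9 ± 5.64 and 44.7 ± 19.5 CPM, rose by 0.63 ± 0.22 with pergolide and 0.79 ± 0.22 with dexfenfluramine. IGFBP4 reached 78.1 CPM in dexfenfluramine replicate 3 and at most 42.2 CPM in the other valves of that group. The dexfenfluramine value ran from 0.49 to 0.94 as single valves were left out, lowest without that valve and called each time. That call was lost with svaseq variables and with the cardiomyocyte covariate. The pergolide call was lost without non-treated replicates 1, 2, 3 or 4 or pergolide replicates 1, 3, 4 or 5 (0.53 to 0.77). It was also lost by limma-voom, with svaseq variables, with DESeq2 size factors and where 10 counts were required in every valve. IGFBP6, with means of 38.2 ± 4.53, 41.3 ± 4.09, 57.0 ± 14.0 and 56.8 ± 13.0 CPM, rose by 0.58 ± 0.16 and 0.57 ± 0.16, calls that held as each valve was left out, although the dexfenfluramine call was lost with svaseq variables and with the cardiomyocyte covariate described further on.

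No FGF ligand was called higher with either drug. FGF16, a ligand known from heart muscle, had means of 10.2 ± 3.93, 6.20 ± 2.97, 4.17 ± 2.39 and 4.99 ± 3.18 CPM, from 7 to 61 counts per valve. It fell with pergolide (-1.26 ± 0.46), a call lost without non-treated replicates 1, 2, 4 or 5 or pergolide replicates 1, 3, 4 or 5 (-1.61 to -1.06), by limma-voom, with svaseq variables, with no filter and with a replicate block, and had -0.98 ± 0.45 with dexfenfluramine, called without non-treated replicate 3 or dexfenfluramine replicate 5 (-1.40 to -0.74). FGF16 was not tested where 10 counts were required in every valve. FGF1, the acidic FGF, which is also found in heart muscle, had means of 111 ± 38.3, 85.1 ± 25.4, 66.4 ± 16.8 and 60.3 ± 26.5 CPM and ran from 15.1 to 155 CPM over the 20 valves. Its values of -0.73 ± 0.33 and -0.87 ± 0.33 were not called, but pergolide was called without non-treated replicate 3 (-0.91 to -0.59) and dexfenfluramine without non-treated replicate 3 or dexfenfluramine replicate 4 (-1.04 to -0.62) and in 5 of the 11 other settings, DESeq2 among them. FGF2, the basic FGF, had 36.6 ± 10.0, 30.9 ± 8.62, 37.8 ± 6.92 and 49.3 ± 8.59 CPM, with uncalled values of 0.046 ± 0.20 and 0.43 ± 0.20. Without non-treated replicate 4 these were -0.12 and 0.26.

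Of the NOTCH and EPH members, NOTCH2 and EPHB3 rose with both drugs and JAG1 was not called. NOTCH2 (ENSOCUG00000016565), a receptor of cell contact signals, had 232, 258, 296, 202 and 250.1 CPM in non-treated and 287, 193, 267, 237 and 257 CPM in serotonin-treated valves. The drug-treated valves had 338, 366, 323, 400.1 and 387 CPM after pergolide and 367, 426, 413, 376 and 344 CPM after dexfenfluramine. The ranges of the drug groups lay above those of both other groups. NOTCH2 rose by 0.55 ± 0.11 with pergolide and 0.64 ± 0.11 with dexfenfluramine, with a serotonin value of 0.0050 ± 0.11, and both calls held as each valve was left out and in all 11 other settings with the same threshold. It rests on 611 to 2470 counts per valve.

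EPHB3 (ENSOCUG00000012637), a receptor of ephrin-B ligands in cell sorting, had 6.49, 6.23, 5.27, 5.88 and 4.60 CPM in non-treated and 9.78, 4.11, 6.43, 6.44 and 4.78 CPM in serotonin-treated valves. It had 10.3, 10.3, 9.48, 8.79 and 15.7 CPM after pergolide and 12.05, 14.8, 12.1, 6.52 and 11.4 CPM after dexfenfluramine. Drug-treated valves were above the non-treated range in every case, dexfenfluramine replicate 4 by only a little, and 1 serotonin valve reached the drug range. EPHB3 rose by 0.95 ± 0.24 with pergolide and 1.01 ± 0.23 with dexfenfluramine, and both calls were lost with svaseq variables. JAG1, a ligand of NOTCH receptors, had means of 96.2 ± 20.0, 118 ± 8.91, 121 ± 8.93 and 120.4 ± 16.4 CPM and uncalled values of 0.30 ± 0.12, 0.33 ± 0.12 and 0.32 ± 0.12 for serotonin, pergolide and dexfenfluramine. Pergolide was called for JAG1 without non-treated replicate 3 (0.20 to 0.38) and dexfenfluramine without non-treated replicate 3 or dexfenfluramine replicates 1 or 4 (0.19 to 0.37). The pergolide value was also called with a replicate block and without both non-treated replicate 3 and dexfenfluramine replicate 3. With upper-quartile normalization factors the dexfenfluramine value was called too.

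Among the prefix matches, LRP2 (ENSOCUG00000011007) held the highest pergolide value of all members. Its levels were 14.8, 26.3, 32.1, 20.0 and 15.0 CPM in non-treated and 37.7, 25.3, 47.9, 53.4 and 27.2 CPM in serotonin-treated valves. They were 69.2, 97.7, 32.2, 50.8 and 52.1 CPM after pergolide and 34.0, 46.9, 9.54, 22.2 and 63.5 CPM after dexfenfluramine. The pergolide valves cleared the non-treated valves, replicate 3 only just, while dexfenfluramine spread from the lowest value of all to among the highest. LRP2 rose by 1.46 ± 0.38 with pergolide and had 0.81 ± 0.39 with serotonin and 0.69 ± 0.38 with dexfenfluramine, the latter called without dexfenfluramine replicate 3 (0.36 to 0.93).

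EPHX1 (ENSOCUG00000011934), which hydrolyses epoxides of drugs and other compounds, had 66.0, 48.2, 63.0, 47.9 and 54.5 CPM in non-treated and 75.2, 55.7, 94.4, 68.4 and 57.6 CPM in serotonin-treated valves. It had 75.5, 73.3, 65.7, 70.5 and 85.9 CPM after pergolide and 68.2, 93.2, 91.1, 107 and 84.2 CPM after dexfenfluramine. All dexfenfluramine valves exceeded all non-treated valves. EPHX1 rose by 0.67 ± 0.14 with dexfenfluramine and by 0.41 ± 0.14 with pergolide, the latter call being lost without non-treated replicates 2, 4 or 5 or pergolide replicates 1, 2, 4 or 5 (0.34 to 0.46), with svaseq variables and with DESeq2 size factors.

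FGFR1OP2 (ENSOCUG00000008342) had 67.1, 65.3, 58.8, 55.01 and 57.1 CPM in non-treated and 70.4, 70.6, 68.1, 85.3 and 70.2 CPM in serotonin-treated valves. The values were 48.7, 42.7, 47.4, 48.0 and 46.6 CPM after pergolide and 40.7, 45.2, 54.9, 45.7 and 53.2 CPM after dexfenfluramine. It was the one member whose serotonin valves all lay above, and whose drug-treated valves all lay below, the non-treated range. It fell with pergolide (-0.38 ± 0.091) and dexfenfluramine (-0.34 ± 0.090), and serotonin gave an uncalled 0.27 ± 0.090. Both drug calls of FGFR1OP2 were lost with svaseq variables. IGF2BP2, with means of 15.6 ± 3.21, 14.2 ± 3.52, 12.4 ± 2.68 and 12.7 ± 2.60 CPM, was called for no treatment, with values from -0.32 to -0.13.

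Comparisons between treatments do not use the non-treated valves, but the treated valves entered the choice of the members. They are therefore given as a description as well, without p-values for single members, and nothing is read from the counts. Pergolide against serotonin gave 13 called members, 10 higher and 3 lower, where 27.5% of all genes were called. Dexfenfluramine against serotonin gave 15, 12 higher and 3 lower, where 30.3% of all genes were called. Both calls were made for 10 members, higher for EPHB3, FZD2, IGFBP6, LTBP1, NOTCH2, SMAD4, TGFBR3 and WNT11 and lower for BMPR2 and FGFR1OP2, from comparisons that share the serotonin valves. FGFR1OP2 had -0.64 ± 0.090 (SE) for pergolide and -0.60 ± 0.090 for dexfenfluramine, with all 10 drug-treated valves below all serotonin valves. WNT11 had 1.42 ± 0.21 and 1.37 ± 0.21, with all drug-treated valves above. NOTCH2 had 0.55 ± 0.11 and 0.63 ± 0.11, also without overlap.

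BMPR2 was lower than with serotonin, at -0.30 ± 0.068 for pergolide and -0.23 ± 0.068 for dexfenfluramine, and every drug-treated valve was below every serotonin valve. TGFBR1 and FZD4 were called against serotonin for pergolide (0.42 ± 0.12 and 0.47 ± 0.14) but not for dexfenfluramine (0.26 ± 0.12 and 0.19 ± 0.14). INHBA was lower with pergolide than with serotonin in all valves (-1.48 ± 0.43). TGFBR2, which was not called against non-treated valves, was higher with dexfenfluramine than with serotonin in all valves (0.32 ± 0.11), and FGF2 was also higher there (0.68 ± 0.20), with overlapping valves. VEGFA and WNT5B, whose serotonin values were near those of the drugs, had differences from serotonin with 95% intervals of -0.64 to 0.36 and -0.76 to 0.45 for pergolide and -0.56 to 0.44 and -0.68 to 0.51 for dexfenfluramine.

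Between dexfenfluramine and pergolide 0 members were called by edgeR, as were 0% of all genes tested. At an unadjusted p under 0.05 there were 3 of the 31 members, and as the share of all genes there is not given, nothing is read from them. DESeq2 called 1 member, FGFBP1, and limma-voom 0. FGFBP1 was lower with dexfenfluramine, with a difference of -2.78 and a 95% interval of -4.22 to -1.33. As single valves were left out the FGFBP1 difference ran from -3.05 to -1.82, smallest in size without pergolide replicate 2. LRP2 had -0.78 (-1.53 to -0.022) and FZD4 -0.29 (-0.57 to -0.0069), both uncalled and with overlapping valves. These intervals are for single genes, without adjustment for the number of genes tested. For NOTCH2 the interval was -0.14 to 0.31, for SMAD4 -0.17 to 0.15 and for WNT11 -0.42 to 0.32. Wider intervals for INHBA (-0.13 to 1.67) and FGF16 (-0.70 to 1.24) leave differences of over 1 on the log2 scale within reach, so that equal levels were not shown. None of the 8 members called for a single drug was thus called between the drugs by edgeR, and 1 of them, FGFBP1, was by DESeq2.

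Several members varied with markers of particular cell types among valves of the same group, FGF1 and FGF16 most closely. With group means removed, the level of each member was correlated with the mean log2 CPM of 4 marker lists over the 20 valves, which made 124 relations, and p-values came from 100000 permutations of valves within groups with Benjamini-Hochberg adjustment. For cardiomyocyte markers, 9 members had an adjusted p under 0.05, 5 of them positive. FGF1 had r = 0.970 (permutation p = 1.00e-05, the smallest that the permutations can give, adjusted p = 0.00124) and Spearman's rho = 0.926 (permutation p = 1.00e-05). Without the 2 valves farthest from the median of the markers r was 0.912. FGF16 had r = 0.881 (permutation p = 2.00e-05, adjusted p = 0.00124), rho = 0.850 (permutation p = 3.00e-05) and r = 0.857 without those valves. The levels of both FGF ligands thus followed the cardiomyocyte markers among valves of the same treatment.

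IGF2BP2 (r = 0.846), VEGFA (r = 0.748) and WNT5A (r = 0.680) were the other positive members, with rho of 0.806, 0.771 and 0.708, permutation p from 7.00e-05 to 0.00128 for r and from 0.00014 to 0.00119 for rho, and r from 0.589 to 0.781 without the farthest valves. Negative members were LTBP1 (r = -0.755, rho = -0.785), NOTCH2 (r = -0.664, rho = -0.835), TGFBR2 (r = -0.594, rho = -0.586) and BMPR1A (r = -0.592, rho = -0.722), with permutation p from 0.00016 to 0.00365 for r and from 3.00e-05 to 0.00883 for rho. Their r without the farthest valves ran from -0.743 to -0.502. For the 2 endothelial markers measured, PECAM1 and EMCN, 2 members had an adjusted p under 0.05. These were INHBA (r = 0.878, permutation p = 7.00e-05, adjusted p = 0.00217, rho = 0.791 with permutation p = 0.00021, r = 0.826 without the farthest valves) and TGFBI (r = 0.667, permutation p = 0.00563, adjusted p = 0.0499, rho = 0.580 with permutation p = 0.00773, r = 0.643 without the farthest valves). Both markers fell with pergolide, where their sum was 117 to 216 CPM against 135 to 322 CPM in non-treated valves, and their part in the INHBA and TGFBI results was not tested. For adipocyte markers no member had an adjusted p under 0.05. The closest was LRP2, with r = 0.702 (permutation p = 0.0085, adjusted p = 0.0586) and rho = 0.609 (permutation p = 0.0121), and r = 0.445 without the farthest valves. All 4 adipocyte markers measured rose with pergolide, summing to 62.3 to 193 CPM against 24.1 to 75.6 CPM in non-treated valves, 32.0 to 149 CPM after serotonin and 3.78 to 109.6 CPM after dexfenfluramine. Their median log2 fold change was 1.60 with serotonin, 2.14 with pergolide and 0.83 with dexfenfluramine, beside LRP2 values of 0.81, 1.46 and 0.69, and their part in the LRP2 result was not tested. Markers of valvular interstitial cells summed to 6539 to 9141 CPM after serotonin, 8000.5 to 12024 after pergolide and 9117 to 12892 after dexfenfluramine, and 5 of 8 rose with pergolide and 4 of 8 with dexfenfluramine. LTBP1 (r = 0.698, rho = 0.549) and TGFBR2 (r = 0.687, rho = 0.675) went with them, FGF1 went against them (r = -0.736, rho = -0.711), and the part of these cells in the TGF-β results was not tested. The 2 macrophage markers measured, C1QA and C1QB, summed to 6.18 to 23.7 CPM in non-treated valves, 12.3 to 38.2 after serotonin, 13.7 to 47.7 after pergolide and 23.2 to 34.8 after dexfenfluramine. C1QA was called higher with pergolide (1.45 ± 0.39), C1QB had 0.59 ± 0.32 with pergolide and 0.86 ± 0.32 with dexfenfluramine, both uncalled, and the part of macrophages in the members' results was not tested. For the interstitial markers the permutation p ran from 0.00046 to 0.00487 for r (adjusted p = 0.00713 to 0.0465) and from 0.00104 to 0.0155 for rho, and r without the farthest valves was 0.621, 0.523 and -0.693. Also above 0.05, but closer to it than LRP2, were VEGFA (r = -0.661, adjusted permutation p = 0.0501) and NOTCH2 (r = 0.630, adjusted permutation p = 0.0503) with interstitial markers and JAG1 with endothelial markers (r = 0.752, adjusted permutation p = 0.0508), with rho of -0.559, 0.686 and 0.621 and r without the farthest valves of -0.457, 0.537 and 0.603.

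**Figure D4:**
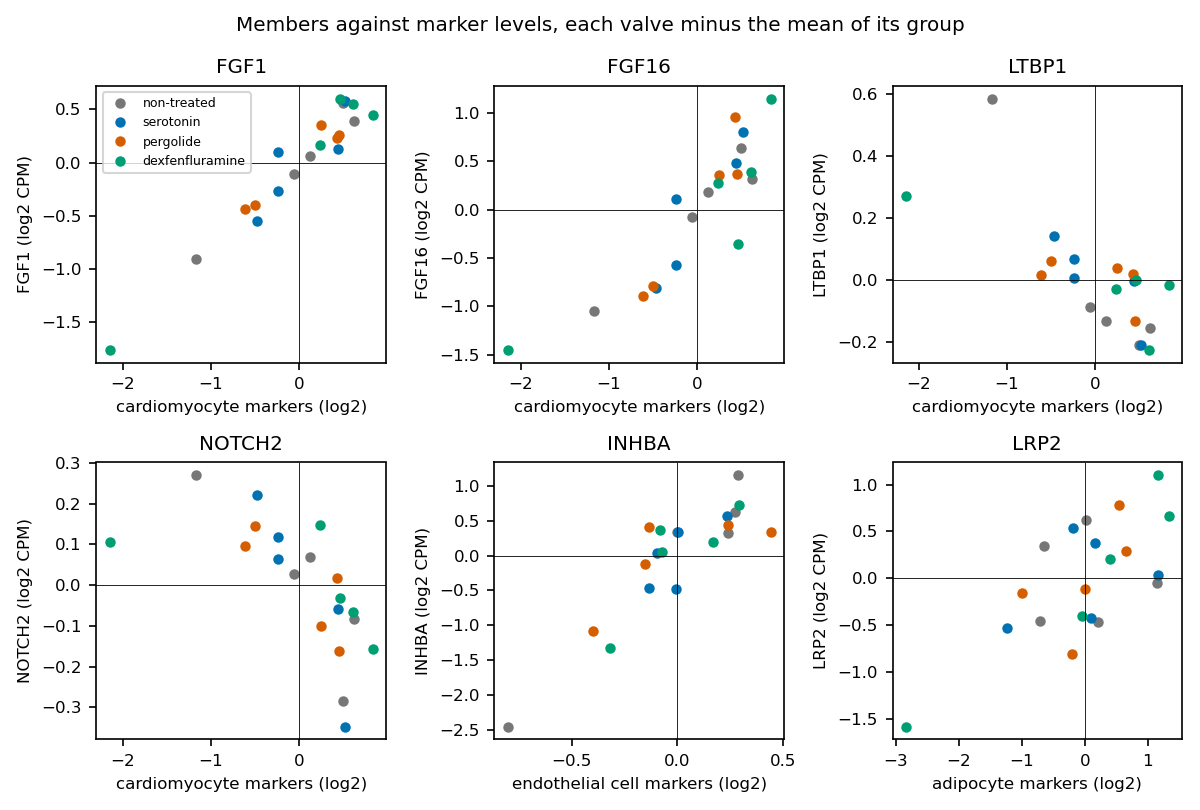
Log2 CPM of 6 members (vertical axes) against the mean log2 CPM of a marker list (horizontal axes), each valve minus the mean of its group, with 20 valves per panel coloured by group. FGF1 (r = 0.970) and FGF16 rise with cardiomyocyte markers, LTBP1 and NOTCH2 decline with them, INHBA rises with endothelial markers, and in the LRP2 panel dexfenfluramine replicate 3 lies far to the lower left.

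Of the 9 cardiomyocyte markers, 1 (TNNT2) was called lower for pergolide and 4 (MYH7, PLN, TNNC1 and TNNT2) for dexfenfluramine. The fit was therefore repeated with the level of these markers in each valve as a covariate, an alternative chosen after seeing the data. Of the 23 pergolide calls 16 remained, and of the 21 dexfenfluramine calls 11 remained, none was added, and no called member changed sign. In the same fit 25.8% of all genes tested were called for pergolide and 17.1% for dexfenfluramine. The median log2 fold change of the members became 0.35 with pergolide and 0.29 with dexfenfluramine. Remaining for both drugs were EPHB3, FGFR1OP2, FZD2, FZD4, LTBP1, NOTCH2, SMAD4, TGFBR3 and WNT11. Lost for both were ACVRL1, IGFBP4 and WNT5B. ACVRL1 had nearly the same fold changes as before, at 0.25 ± 0.10 with pergolide and 0.29 ± 0.12 with dexfenfluramine, as did WNT5B, at 0.94 ± 0.35 and 0.98 ± 0.40. IGFBP4 moved from 0.63 to 0.38 ± 0.16 and from 0.79 to 0.23 ± 0.19.

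Among the TGF-β and BMP members, dexfenfluramine calls were lost for the receptor TGFBR1, which went from 0.50 to 0.35 ± 0.13, for BMPR1A, from 0.29 to 0.16 ± 0.087, and for LTBP2, from 0.57 to 0.24 ± 0.23. LTBP1 went from 0.66 to 0.38 ± 0.11 and was still called. The receptor FGFR2 lost its dexfenfluramine call as well, from 0.53 to 0.40 ± 0.19. With pergolide the matrix protein TGFBI went from 0.55 to 0.43 ± 0.18, EPHX1 from 0.41 to 0.35 ± 0.14 and the ligand WNT5A from -0.45 to -0.31 ± 0.12, and these 3 calls were lost.

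The largest shift was that of the carrier FGFBP1 with dexfenfluramine, from -2.18 to -0.78 ± 0.78, no longer called. The ligand FGF1 went from -0.87 to 0.19 ± 0.13 with dexfenfluramine and from -0.73 to -0.088 ± 0.11 with pergolide, and FGF16 from -0.98 to 0.37 ± 0.29 and from -1.26 to -0.48 ± 0.26, the pergolide call being lost. VEGFA kept its pergolide call at -0.55 ± 0.17 and lost its dexfenfluramine call at -0.20 ± 0.20. IGFBP6 went from 0.57 to 0.29 ± 0.17 with dexfenfluramine, no longer called, and had 0.44 ± 0.15 with pergolide, still called. FZD2 stood at 0.87 ± 0.26 and 0.91 ± 0.29 and WNT11 at 1.04 ± 0.23 and 0.97 ± 0.26, against 1.01 and 1.24 and 1.05 and 1.00 without the covariate. TNNT2, one of the genes behind the covariate, was itself lower with both drugs. Without non-treated replicate 3 and dexfenfluramine replicate 3 together, 23 members were called for pergolide and 22 for dexfenfluramine. The share of all genes called in that fit is not given, so that nothing is read from these counts.

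**Figure D5:**
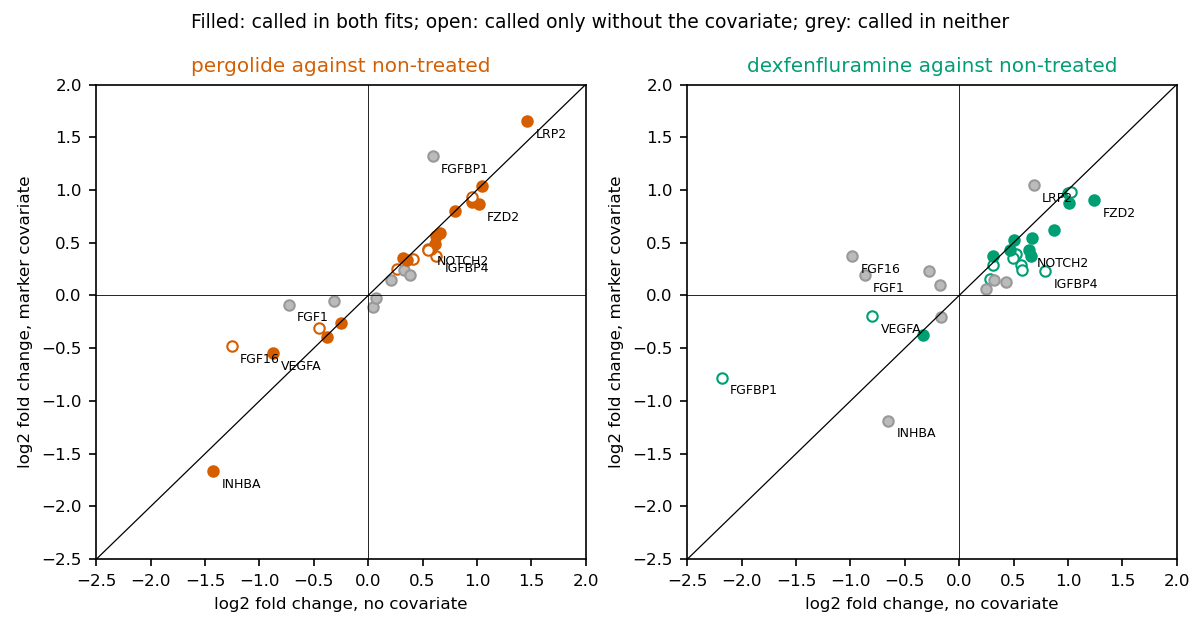
Log2 fold change of each member against non-treated valves without (horizontal axis) and with (vertical axis) cardiomyocyte marker level as a covariate, for pergolide and dexfenfluramine; the diagonal marks equal values. IGFBP4 with dexfenfluramine lies well below the diagonal, at 0.23 with the covariate, LRP2 with pergolide lies above it at 1.66, and FGF1 and FGF16 with dexfenfluramine lie far above it, at 0.19 and 0.37.

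Other genes of the same pathways were taken from 16 lists of 256 genes in all, of which 60 could be matched to an identifier, only through the same list of the study and after a surplus 0 in some of its identifiers was dropped, and 27 of these are members. Their calls are thus a description too. Of the 33 that are not members, 14 were called higher and 6 lower for pergolide, 14 higher and 1 lower for dexfenfluramine, and 0 for serotonin by edgeR or limma-voom, with 8 at an unadjusted p under 0.05, while DESeq2 called 1, KLB. Their median log2 fold changes were 0.084, 0.40 and 0.57 for serotonin, pergolide and dexfenfluramine. The share of all genes at an unadjusted p under 0.05 is not given, so that nothing is read from the 8 genes there. Over all genes tested, 12.1% were called higher and 12.7% lower for pergolide, and 13.5% higher and 15.4% lower for dexfenfluramine. The counts by list further below stand beside the same shares, and nothing is read from any excess. DUSP6 and SPRY1, feedback genes of receptor tyrosine kinases, rose with both drugs. DUSP6, a phosphatase that limits ERK signals, had means of 3.92 ± 1.17 (SD), 4.99 ± 1.32, 9.41 ± 1.53 and 6.23 ± 1.11 CPM in non-treated, serotonin, pergolide and dexfenfluramine valves, and rose by 1.23 ± 0.22 and 0.64 ± 0.22 with the drugs. SPRY1, an inhibitor of FGF signals, rose by 0.63 ± 0.17 and 0.66 ± 0.17. KLB, the co-receptor of endocrine FGFs, rose by 2.94 ± 0.59 with pergolide, where it had 6.51 to 15.4 CPM against 0.542 to 2.35 CPM in non-treated valves. Its means were 1.45 ± 0.698, 5.78 ± 3.17, 11.0 ± 3.46 and 4.48 ± 3.13 CPM, the uncalled serotonin and dexfenfluramine values were 2.04 ± 0.64 and 1.65 ± 0.63, and 4 of 5 valves in each of these groups lay above all non-treated valves. KLB was at 0 counts in dexfenfluramine replicate 3, the valve lowest in adipocyte markers.

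WLS, which carries WNT ligands to the cell surface, rose by 0.78 ± 0.18 with pergolide and 0.95 ± 0.18 with dexfenfluramine, from a non-treated mean of 26.8 ± 5.73 CPM. The inhibitory SMAD7, with means of 6.02 ± 1.11, 9.76 ± 1.42, 9.87 ± 3.61 and 11.4 ± 3.03 CPM, rose by 0.70 ± 0.24 and 0.91 ± 0.24. Its uncalled serotonin value was 0.69 ± 0.25, with every serotonin valve above every non-treated valve, whereas pergolide valves overlapped the non-treated ones. ACVR1, a type I receptor of BMP and activin ligands, rose with dexfenfluramine by 0.56 ± 0.13 and had 0.28 ± 0.13 with pergolide. LEMD3, an inner nuclear membrane protein that antagonizes SMADs, fell with both drugs (-0.45 ± 0.11 and -0.40 ± 0.11). TAGLN, a TGF-β target of smooth muscle cells, rose by 0.99 ± 0.36 and 1.36 ± 0.35 from low levels of 1.40 to 2.99 CPM. Of the other smooth muscle markers measured, MYH11 was called lower with dexfenfluramine (-1.41 ± 0.36) and had -0.55 ± 0.34 with pergolide, and DES was called for neither drug (-0.37 ± 0.27 with dexfenfluramine). The sum of all 3, TAGLN included, was 243 to 644 CPM in non-treated valves, 363 to 447 after pergolide and 119 to 489.9 after dexfenfluramine, and the part of smooth muscle cells in the TAGLN result was not tested. By list, the 3 BMP and activin antagonists had 2 calls, both higher, for each drug, and the 4 FGF receptor and feedback genes had 4 for pergolide and 3 for dexfenfluramine, all higher. The 4 WNT signal transduction and target genes had 1 higher and 1 lower for pergolide and 0 for dexfenfluramine, the NOTCH list of 5, members included, had 1 higher and 2 lower for pergolide and 1 higher for dexfenfluramine, and the 4 FGF ligands and binding proteins had 1 lower for each drug.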

How the data were processed

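RNA-seq of 20 rabbit tricuspid valves, 5 per group, was analysed. Per the methods of the study, stranded libraries were made after removal of ribosomal RNA, and reads were aligned with TopHat2 2.1.1 to the rabbit assembly oryCun2 and counted per Ensembl gene with HTSeq. The deposited values are the raw counts of the authors, neither normalized nor pooled. The strand setting and the annotation release are not given in the sources used here, so antisense and overlapping genes cannot be told apart. The methods of the study name limma-voom with surrogate variables. Here all 20 valves were fitted together with edgeR 4.0.16 (R 4.3.3) by the quasi-likelihood test, with TMM factors, genes of low counts filtered, and p-values adjusted by Benjamini-Hochberg over 8683 genes, at a threshold of 0.05. The labels give no litter, batch or day, so p-values measure the spread between these valves. CPM were computed with edgeR, and a prior count of 2 was added for log2 CPM in figures, correlations and the covariate.

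The members and gene lists were chosen with earlier results of these data known. Symbols were paired with identifiers through the supplementary gene list of the study, of which only names and identifiers were used. All members are named. Values in every valve are given for called members whose treated valves did not overlap the non-treated valves, at most 3 per pathway in order of fold change. Beyond the members, the 8 called pathway genes with the smallest p-value are named. No sequence is shown, as no sequence table was used here. The alternatives were DESeq2 1.42.0, limma-voom (limma 3.58.1), svaseq variables (sva 3.50.0), 2 other normalizations, 2 other filters, a stricter threshold of 0.01, a replicate block, fits of only the groups compared, and each valve left out in turn. A covariate for cardiomyocyte markers and a fit without 2 valves were chosen after seeing the data. The fit was tested on simulated data.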

Additional observations from a re-analysis of the deposited data

Results flagged for a closer look

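In 9 of the 124 groups of 5 valves examined, 1 for each member and treatment group, a single valve lay apart from the other 4 by more than 0.71 of the range of the group, the 95% critical value of Dixon's test. Chance alone flags about 1 in 20 such groups. Non-treated replicate 3 was the high valve for LTBP1 at 334 CPM, against 192 to 209 CPM in the others, and for TGFBR2 at 247 CPM. Non-treated replicate 2 was low for ACVRL1 at 21.9 CPM, and non-treated replicate 4 was low for FGF2 at 19.4 CPM. In the pergolide group, EPHB3 was high in replicate 5 at 15.7 CPM, FGFBP1 was high in replicate 2 at 22.7 CPM, and LTBP1 was low in replicate 3 at 319 CPM. FGFR1OP2 was high in serotonin replicate 4 at 85.3 CPM, and IGF2BP2 was low in dexfenfluramine replicate 3 at 8.10 CPM, the valve with the lowest sum of cardiomyocyte markers.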

How the results depend on the processing

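With svaseq variables, 8 members were called for pergolide, 5 for dexfenfluramine and 6 for dexfenfluramine against serotonin, while all genes called went to 1115 and 944 for the drugs, and the cause was not tested. At an adjusted p under 0.01, 12 members remained for pergolide, 11 for dexfenfluramine, 8 for pergolide against serotonin and 7 for dexfenfluramine against serotonin. The share of all genes called is not given for that threshold or for fits with valves left out. Nothing is read from the size of those counts. The cardiomyocyte covariate left 11 members for dexfenfluramine. DESeq2 called 1 member, FGFBP1, between the drugs, and 2 members were called for serotonin without non-treated replicate 3 and dexfenfluramine replicate 3. As single valves were left out, members called ranged from 0 to 1 for serotonin (1 without non-treated replicate 3), from 17 to 23 for pergolide, from 18 to 24 for dexfenfluramine, from 11 to 13 and from 10 to 16 for the drugs against serotonin, and stayed at 0 between the drugs. Of the 60 pathway list genes, 40 were called for pergolide, 34 for dexfenfluramine and 0 for serotonin, against 24.8%, 28.9% and 1.19% of all genes tested. For pergolide the list count was 17 at 0.01, 14 with svaseq variables and 26 with at least 10 counts in every valve, where fewer genes were tested. For dexfenfluramine it was 14 at 0.01, 8 with svaseq variables and 16 with the covariate. For serotonin it was 1 with DESeq2, 1 with the covariate, 5 without both valves, and from 0 to 2 as single valves were left out, with 2 without non-treated replicate 3. Over the alternatives, the called log2 fold changes of each drug against non-treated valves, for the members shown valve by valve, gave 541 values, of which 487 kept direction and call, 54 kept direction but lost the call and 0 reversed. Those members were chosen for treated valves that did not overlap the non-treated valves, and the tally leaves out the other called members. Among the latter, LTBP1 lost the call in 0 of 10 fits with a valve left out for each drug. FGF16 and IGFBP4 with pergolide and LTBP2 with dexfenfluramine lost it in 8 of 10, the most of any. Uncalled values are not among the 541 values. That of FGFBP1 with pergolide changed sign without pergolide replicate 2 (-0.37 to 0.97), and that of FGF2 with pergolide without non-treated replicate 4 (-0.12 to 0.11). Low counts limit the precision for FZD2 (2 to 36 per valve), WNT11 (4 to 30) and WNT5B (5 to 21), and for FGFBP1, which had as few as 2.

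Replicate numbers are shared between groups, but valves with the same number did not deviate together, with correlations of their deviations from -0.34 to 0.49, a mean of -0.022 and 6 of 30 pairs over 0.1. With a replicate block, 20 members were called for pergolide, 22 for dexfenfluramine, 13 for pergolide against serotonin, 15 for dexfenfluramine against serotonin, and 0 for serotonin and between the drugs. The pathway list gave 35 for each drug. The share of all genes called with the block is not given, so that nothing is read from the size of these counts.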

Other observations

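In the gene list of the study, 8 further genes with the same prefixes carry a surplus 0 in their identifier and so fell outside the members. With that 0 dropped, 4 of them were called higher for pergolide and 5 for dexfenfluramine, and 0 were called for serotonin by edgeR, with 3 at an unadjusted p under 0.05. Over all genes tested, 12.1% were called higher for pergolide and 13.5% for dexfenfluramine, and 1.19% were called in either direction for serotonin. These shares are at the adjusted threshold. That at an unadjusted p under 0.05 is not given, so that nothing is read from the 3. The genes named next were chosen after their values were seen. BMP2, a BMP ligand of valve formation, had means of 1.86 ± 0.811, 3.72 ± 1.24, 3.95 ± 0.836 and 3.59 ± 1.45 CPM (SD, n = 5) in non-treated, serotonin, pergolide and dexfenfluramine valves. It rose by 1.05 ± 0.33 with pergolide and 0.90 ± 0.33 with dexfenfluramine, and its uncalled serotonin value was 0.96 ± 0.34. BMPER, a secreted modulator of BMP signals, had 3.56 ± 1.92, 6.37 ± 3.32, 8.89 ± 2.95 and 9.04 ± 2.93 CPM and rose by 1.23 ± 0.36 and 1.26 ± 0.36. ACVR1B, a type I receptor of activin, rose with dexfenfluramine by 0.72 ± 0.24 and had 0.12 ± 0.25 with pergolide. PDGFC, a ligand of platelet-derived growth factor receptors, rose with pergolide by 0.39 ± 0.12 and had 0.31 ± 0.12 with dexfenfluramine. SMAD2, a mediator of TGF-β and activin signals, was called for neither drug, at 0.21 ± 0.077 and 0.11 ± 0.077, while its partner SMAD4 was called for both. These genes come from the same list of called genes, so that their values are a description.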
